A study of Mus musculus with 4 samples.

Results

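The genes described here build the contractile unit of heart muscle: the myosin light chains Myl2, Myl3, Myl4 and Myl7, the myosin heavy chains Myh6 and Myh7, the troponin subunits Tnnt2 and Tnni3, the cardiac actin Actc1 and the myosin-binding protein Mybpc3. All probes that the array files assign to these 10 genes by name were taken, which gave 16 of the 41174 gene probes, for 10 of the 27670 genes and transcripts named on the array. Of these, 15 were bright enough for testing, out of 24984 kept in all. The other one, a second probe of Tnnt2, was well above background in 0 of 8 channels and is not tested.

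RNA came from mouse embryos of 2 stages, E11.5 and E9.5, where the number counts days of gestation. At each stage Nxn-null embryos (genotype NRX -/- in the labels, called KD in the sample titles) were set against wild-type embryos (NRX +/+), and both genotypes were C57BL/6J and untreated. Nxn encodes nucleoredoxin, a thioredoxin-related protein, and the series title concerns its part in Wnt/beta-catenin signalling. Each stage had 2 two-colour arrays, with Nxn-null RNA in Cy5 on replicate 1 and in Cy3 on replicate 2, and wild-type RNA in the other dye. The labels give neither the number of embryos behind an RNA, nor their exact stage or size, nor how they were dissected, nor whether the arrays of a stage carried separate RNA extracts. All p-values therefore compare the RNAs that were hybridised and measure the spread between arrays, which may be technical.

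In a sarcomere, thick filaments of myosin pull on thin filaments of actin. Each myosin head has a heavy chain, which holds the motor, an essential light chain and a regulatory light chain. The troponin complex sits on the thin filament and couples contraction to calcium, and myosin-binding protein C decorates the thick filament and tunes cross-bridge cycling. The heart is the earliest organ of the mouse embryo to work, and several of these genes differ between its chambers as it loops and septates: Myl2 marks ventricular muscle from early on, Myl7 becomes largely atrial, and Myh7 dominates the embryonic ventricle while Myh6 is strong in the atria.

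The stretches just before an annotated transcription start are shown for 5 of these genes. They are Myl2, which had the largest ratio between genotypes, and the 4 genes that hold a CArG box (the motif of serum response factor) or a MEF2 motif there. The 120 bases before the start come from RefSeq on assembly GRCm38.p6, read 5′ to 3′ on the strand of the gene. Capitals mark matches to CArG, MEF2 or CATTCC, the MCAT motif of TEAD factors, and the Myl2 stretch holds none of these. Myl2 lies at chr5:122092604-122092723 on the plus strand, Myl3 at chr9:110763558-110763677 on the plus strand and Myl7 at chr11:5898783-5898902 on the minus strand. Actc1 lies at chr2:114052876-114052995 on the minus strand and Mybpc3 at chr2:91118024-91118143 on the plus strand.
Myl2: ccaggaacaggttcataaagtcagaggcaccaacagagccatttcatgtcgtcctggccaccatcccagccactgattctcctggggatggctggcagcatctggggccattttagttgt
Myl3: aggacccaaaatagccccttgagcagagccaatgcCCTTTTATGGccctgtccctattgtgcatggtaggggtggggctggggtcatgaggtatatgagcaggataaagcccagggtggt
Myl7: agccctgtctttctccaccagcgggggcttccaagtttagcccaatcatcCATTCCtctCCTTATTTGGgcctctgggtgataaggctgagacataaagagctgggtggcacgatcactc
Actc1: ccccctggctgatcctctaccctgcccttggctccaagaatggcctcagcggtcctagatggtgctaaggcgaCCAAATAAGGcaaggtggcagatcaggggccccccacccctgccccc
Mybpc3: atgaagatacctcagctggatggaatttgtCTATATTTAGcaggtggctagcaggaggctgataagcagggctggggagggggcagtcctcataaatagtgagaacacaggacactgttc

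All 10 genes had a RefSeq entry, and motifs were searched on both strands of the 250 bases before the start. Myl2, Myh7 and Tnnt2 had 2 entries each, of which only the first was searched and, for Myl2, shown. Which of their annotated starts is used in heart muscle was not tested, so the stretch shown for Myl2 need not be its promoter there. The shares of all promoters count every entry, so a gene can count more than once. A CArG box was present in 3 of the 10, Myl3, Myl7 and Actc1, and in 1.47% of all 32851 promoters in the table. CATTCC was present in 5 (Myl3, Myl7, Myh6, Myh7 and Tnnt2), against 12.6% of all. AGATAA, bound by GATA factors, was present in Myl2 and Tnnt2, against 9.99% of all, and the MEF2 motif in Mybpc3, against 1.69%. AAGTG, the core bound by NKX2-5, was present in 6, against 40.7%, and the E-box CANNTG in 8, against 66.2%. AAGTG can form part of CANNTG and does so in Myl7 and Mybpc3. TATAAA was present in 0 of the 10, against 12.4%. These matches describe letters in a window and do not show that a factor binds there.

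At E9.5 every one of the 10 genes was lower in the Nxn-null RNA. Their log2 ratios of Nxn-null over wild type ran from -3.43 for Myl2 to -1.11 for Actc1, with a median of -1.55. All 15 kept probes were lower on both arrays and passed the test (limma on all kept probes, adjusted p of 4.87e-05 or less), where 13.5% of all kept probes were called lower. By size, 14 of the 15 were at least 2-fold lower, where 0.616% of all kept probes were. The median ratio of all kept probes was 0.0041, a value that the loess normalisation within arrays sets near 0, and 0.0515 with median centring. A call means that the ratio lay beyond limma's moderated spread after a dye term was taken out. With 1 residual degree of freedom and a prior of 17.98, that spread is mostly borrowed from other probes. The SEs given with ± rest on it too, and are not the spread of a gene's own 2 arrays. In RNA of embryos, fewer heart muscle cells and less RNA per cell cannot be told apart.

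At E11.5 the same genes stood close to wild type. Their ratios ran from -0.08 for Myh7 to 0.41 for Myl2, with a median of 0.13. Of the 10 genes, 2 were called higher (Myl2 and Myl4) and 0 lower, where 3.17% of all kept probes were called higher and 5.31% lower. An unadjusted p under 0.05 was reached by 4 of the 10 genes and by 4803 of the 24984 kept probes. Of the 15 probes, 10 were higher on both arrays, 2 were lower on both and 3 changed sign between the arrays.

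**Figure D1:**
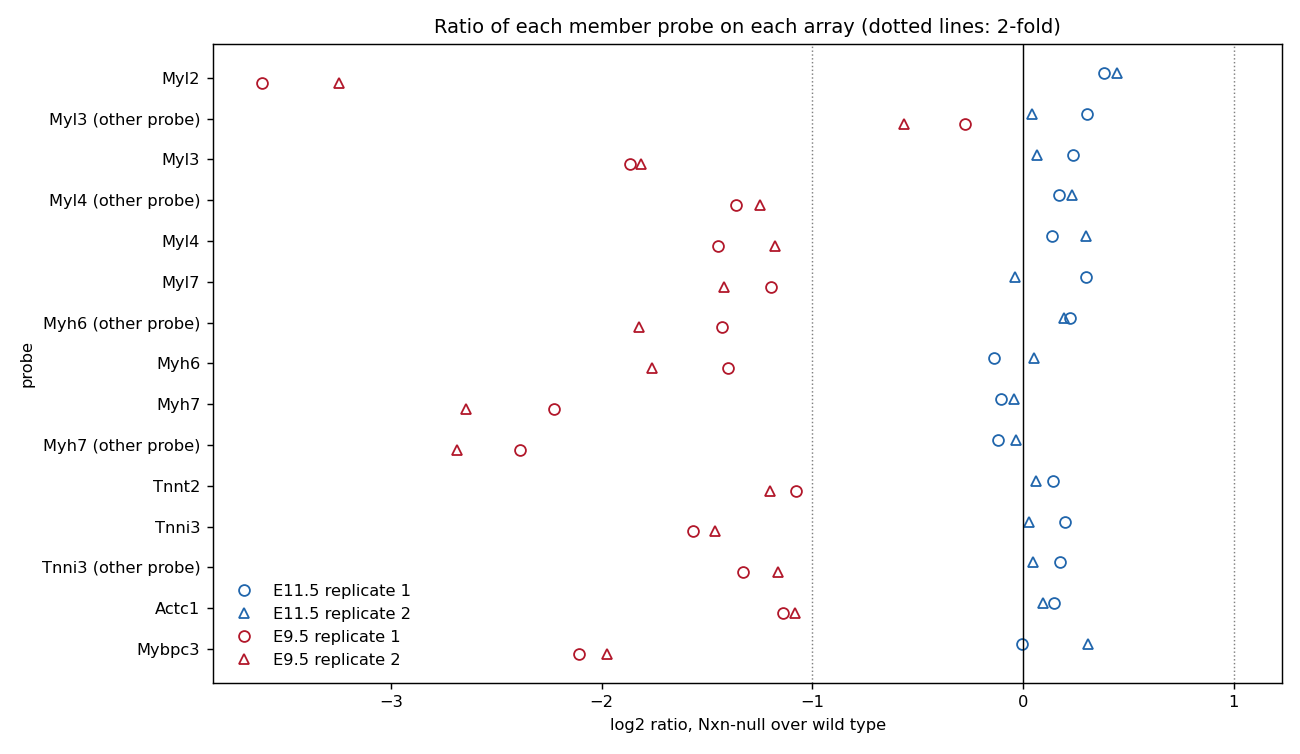
Log2 ratio of Nxn-null over wild type (x axis) for each of the 15 kept probes of the 10 genes (rows), with circles for replicate 1 and triangles for replicate 2, E11.5 in blue and E9.5 in red. All E9.5 values lie left of 0, and all but those of the other Myl3 probe lie beyond the dotted line of a 2-fold decrease, whereas the E11.5 values lie around 0, up to 0.45 for Myl2.

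The regulatory light chain of the ventricle, Myl2 (probe A_51_P392459), had the largest ratio. Its log2 channel intensity at E9.5 was 8.54 and 8.75 in the Nxn-null RNA, against 12.16 and 11.99 in the wild-type RNA. At E11.5 it was 11.91 and 11.94 in the Nxn-null RNA, against 11.53 and 11.49 in the wild-type RNA. The Nxn-null E9.5 channels thus lay far below the other 6, and at E11.5 both Nxn-null channels lay above both wild-type channels. The E9.5 ratio was -3.61 and -3.25 on the arrays, with an SD of 0.26. Their mean was -3.43 ± 0.07 (moderated SE of the fit over 4 arrays, limma adjusted p = 4.10e-18), or 9.28% of the wild-type level. Only 4 of the 24984 kept probes had a lower E9.5 ratio, so that it ranked 5 from the lowest. The E11.5 ratio was 0.38 and 0.45, a mean of 0.41 ± 0.07 (1.33-fold higher, limma adjusted p = 0.000295). That call was lost in 6 of the 13 alternative settings, among them each of the 4 fits that left out an array (adjusted p from 0.191 to 1).

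Myl7 (A_51_P246345), the regulatory light chain that becomes largely atrial, followed another course. At E9.5 its log2 channel intensity was 13.89 and 13.71 in the Nxn-null RNA, against 15.09 and 15.13 in the wild-type RNA. At E11.5 it was 14.19 and 14.05 in the Nxn-null RNA, against 13.89 and 14.09 in the wild-type RNA. The wild-type E9.5 channels stood apart at the top, and the other 6 channels spanned a narrow range in which the wild-type E11.5 values overlapped those of the Nxn-null RNA of both stages. The E9.5 ratio was -1.20 and -1.42, a mean of -1.31 ± 0.06 (2.48-fold lower, limma adjusted p = 5.88e-12). The E11.5 ratio was 0.30 and -0.04, a mean of 0.13 with a 95% interval from -0.0027 to 0.26.

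The essential light chain of the ventricle, Myl3, also made in slow skeletal muscle, had 2 probes that differed in size. Its brighter probe (A_51_P177210) had 10.70 and 10.66 in the Nxn-null E9.5 channels, against 12.57 and 12.47 in the wild-type ones, and its ratio was -1.84 ± 0.07 (3.58-fold lower, limma adjusted p = 3.58e-14). The dimmer probe (A_51_P434910) had 9.34 and 8.97, against 9.62 and 9.53, and its ratio was -0.42 ± 0.06 (1.34-fold lower, adjusted p = 4.87e-05). Both probes were lower on both arrays, so they shared the direction but not the size. At E11.5 the brighter probe had 12.49 and 12.36, against 12.26 and 12.29, and the dimmer one 9.55 and 9.38, against 9.25 and 9.34. The channels of the genotypes did not overlap there for either probe, but the gaps were small. The E11.5 ratios were 0.15 and 0.17, and neither passed (adjusted p = 0.200 and 0.115).

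Myl4, the essential light chain of the atria and of embryonic muscle, gave nearly equal values by its probes. The brighter probe (A_52_P544523) had 12.10 and 12.06 in the Nxn-null E9.5 channels, against 13.55 and 13.23 in the wild-type ones. Its ratio was -1.45 and -1.18, a mean of -1.31 ± 0.06 (2.48-fold lower, limma adjusted p = 5.56e-12), and that of the other probe (A_51_P413130) was also -1.31. At E11.5 the brighter probe had 13.36 and 13.39, against 13.22 and 13.10, with both Nxn-null channels above both wild-type ones. Its ratio was 0.14 and 0.30, a mean of 0.22 ± 0.06 (1.16-fold higher, adjusted p = 0.0384). The other probe had 0.20 and missed the threshold (adjusted p = 0.0563), and the call of the brighter one held in 2 of the 13 alternative settings.

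**Figure D2:**
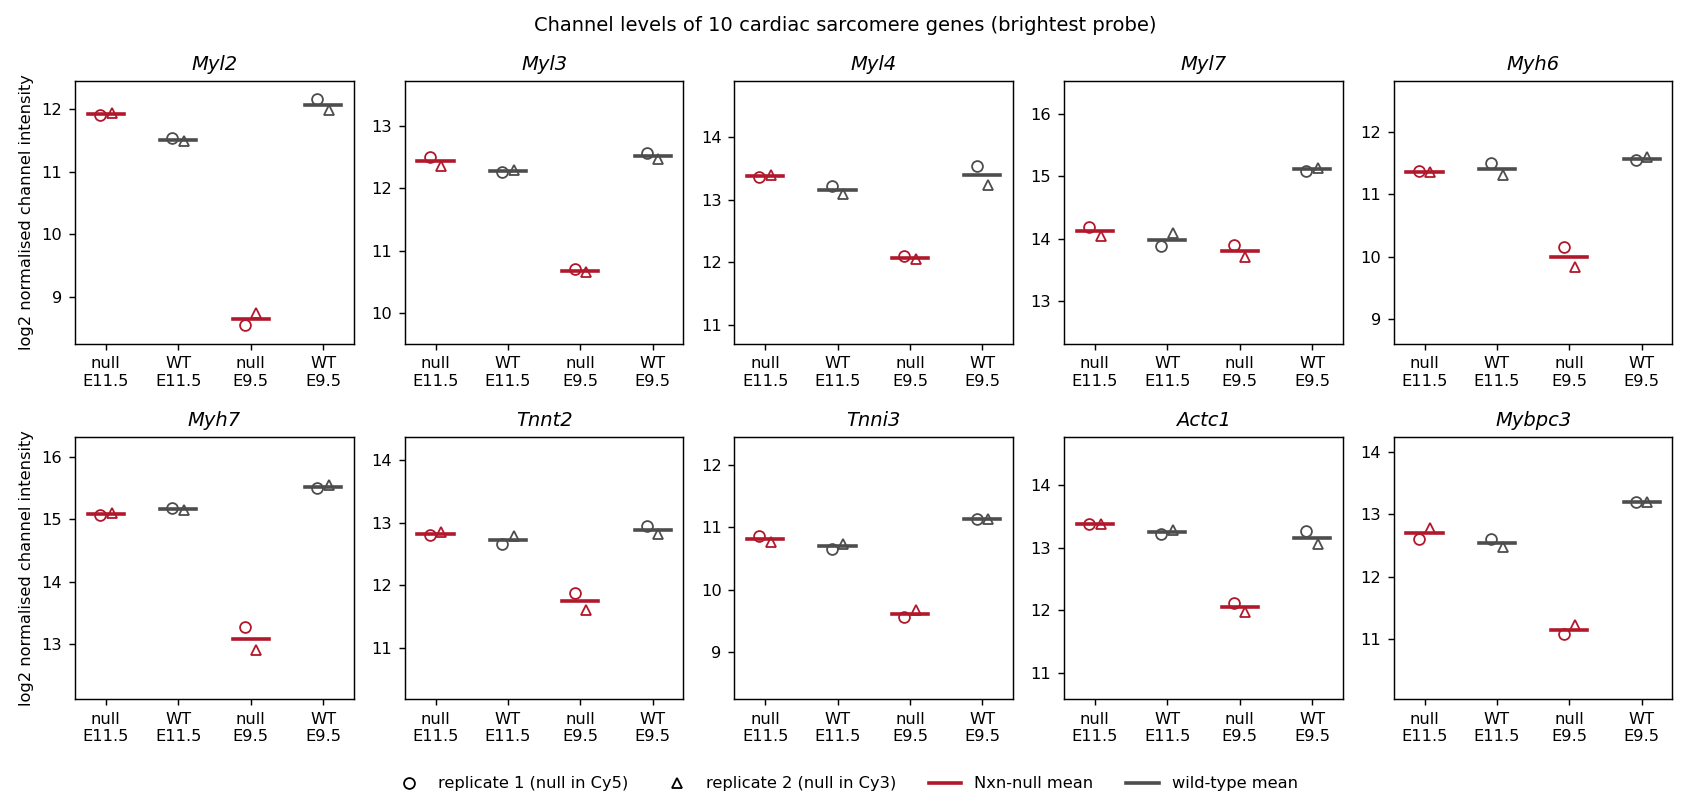
Log2 normalised channel intensity (y axis, each panel spanning the same number of log2 units) of the brightest probe of each gene in the Nxn-null (red) and wild-type (grey) channels at E11.5 and E9.5, with circles for replicate 1, triangles for replicate 2 and bars for the mean of the 2 arrays. The Nxn-null E9.5 channels lie below all others in every panel but that of Myl7, by the largest gap for Myl2 (8.54 and 8.75), and in the Myl7 panel the wild-type E9.5 channels (15.09 and 15.13) stand alone above the rest.

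Of the heavy chains, Myh7 had the second-lowest ratio of the 10 genes. Myh7, the beta heavy chain of the embryonic ventricle and of slow skeletal muscle, had 13.27 and 12.90 in the Nxn-null E9.5 channels by its brighter probe (A_52_P88033), against 15.50 and 15.54 in the wild-type ones. At E11.5 it had 15.07 and 15.10, against 15.18 and 15.14. The Nxn-null RNA was far below wild type at E9.5 and slightly below it on both arrays at E11.5. The E9.5 ratio was -2.23 and -2.64, a mean of -2.44 ± 0.07 (5.41-fold lower, limma adjusted p = 2.14e-15), and the other probe (A_51_P143162) had -2.54 ± 0.07. At E11.5 the probes had -0.08 each, with 95% intervals from -0.23 to 0.08 and from -0.23 to 0.07.

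Myh6, the alpha heavy chain, had 10.15 and 9.83 in the Nxn-null E9.5 channels by its brighter probe (A_52_P117510), against 11.56 and 11.60 in the wild-type ones. The other probe (A_51_P512210) had 10.21 and 9.98, against 11.64 and 11.80. Both pairs of channels were well apart, with ratios of -1.58 ± 0.08 (2.99-fold lower, limma adjusted p = 6.06e-12) and -1.63 ± 0.07. At E11.5 the brighter probe had 11.37 and 11.36, against 11.51 and 11.31, and the other one 11.42 and 11.26, against 11.20 and 11.06. The brighter probe's genotypes overlapped and the other's did not. The ratios of the probes differed in sign: the brighter one had -0.14 and 0.05, a mean of -0.04 (adjusted p = 0.840), and the other one had 0.22 and 0.19, a mean of 0.21 (adjusted p = 0.0768). Myh6 and Myh7 are close relatives with neighbouring genes, and the probe sequences were not used here, so hybridisation of one transcript to a probe of the other was not tested.

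Troponin T and troponin I, the subunits that anchor the complex to tropomyosin and hold contraction off at low calcium, were also lower. Tnnt2 (A_51_P338262) had 11.87 and 11.61 in the Nxn-null E9.5 channels, against 12.95 and 12.81 in the wild-type ones, a ratio of -1.14 ± 0.06 (2.20-fold lower, limma adjusted p = 4.84e-11). Tnni3 had 9.56 and 9.68 by its brighter probe (A_52_P563123), against 11.13 and 11.14, a ratio of -1.51 ± 0.07 (2.86-fold lower, adjusted p = 1.31e-12). Its other probe (A_51_P386983) had -1.25 ± 0.07. The channels of the genotypes did not overlap at E9.5 for any of these probes. At E11.5 Tnnt2 had 12.80 and 12.85, against 12.66 and 12.79, and Tnni3 10.86 and 10.77, against 10.66 and 10.74, so both Nxn-null channels lay just above both wild-type ones. The E11.5 ratios were 0.10 for Tnnt2, and 0.11 for both Tnni3 probes, with adjusted p from 0.399 to 0.430. The second Tnnt2 probe (A_52_P430110), which lay below the detection call in every channel, had ratios from -0.10 to 0.10 over the 4 arrays and sets no limit on the transcript.

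Actc1 (A_51_P149469), the alpha actin of heart and of embryonic skeletal muscle, had the smallest E9.5 ratio of the 10 by brightest probe. It had 12.12 and 11.98 in the Nxn-null E9.5 channels, against 13.26 and 13.06 in the wild-type ones, a ratio of -1.11 ± 0.06 (2.16-fold lower, limma adjusted p = 7.92e-11). At E11.5 it had 13.37 and 13.38, against 13.23 and 13.29, a ratio of 0.12 (adjusted p = 0.324). The Nxn-null E11.5 channels were its highest of all, whereas the other 9 genes were highest in the wild-type E9.5 RNA. Actin transcripts are much alike in sequence, and hybridisation of other actins to this probe was not tested.

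Mybpc3 (A_51_P465449), the cardiac myosin-binding protein C, had 11.09 and 11.22 in the Nxn-null E9.5 channels, against 13.19 on both arrays in the wild-type ones. Its ratio was -2.11 and -1.97, a mean of -2.04 ± 0.06 (4.11-fold lower, limma adjusted p = 4.39e-15). At E11.5 it had 12.60 and 12.78, against 12.60 and 12.48. The genotypes were level on replicate 1 of E11.5 and apart by 0.31 on replicate 2, a mean of 0.15 that did not pass (adjusted p = 0.196).

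The E9.5 calls held under every alternative that kept all 4 arrays. These changed the background correction, the normalisation, the filter or the model, and all 10 genes were called lower each time. Of all probes tested, 1.86% to 14.8% were then called lower. Changes of the filter or the model alone, or leaving out an E11.5 array, keep the E9.5 ratios by construction and bear on the calls only. Over all 13 settings, those without 1 array included, the ratio of Myl2 ranged from -3.83 to -3.25. That of Myh7 ranged from -2.64 to -2.23 and that of Actc1 from -1.14 to -1.04. At E11.5 the ratio of Myh6 ranged from -0.14 to 0.10 and that of Myh7 from -0.11 to 0.13, and Myl7 and Mybpc3 each fell just below 0 without 1 array (-0.04 and -0.0035).

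**Figure D3:**
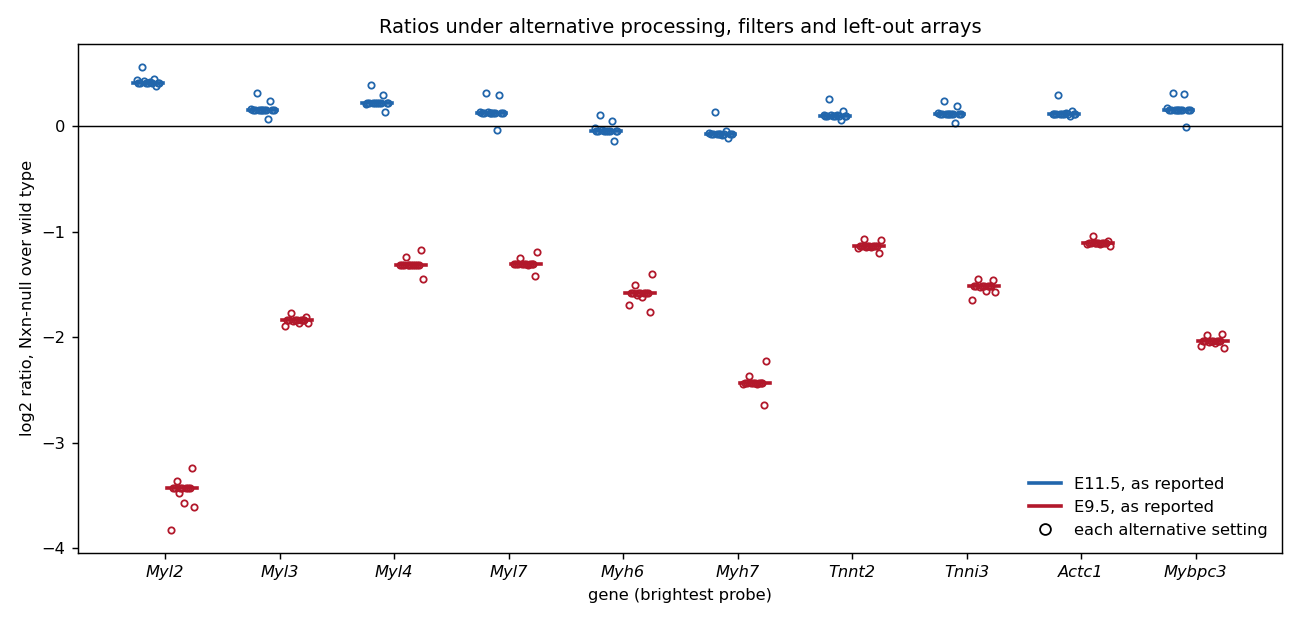
Log2 ratio of Nxn-null over wild type (y axis) of the brightest probe of each gene, with bars for the reported value and open circles for each of the 13 alternative settings, E11.5 in blue and E9.5 in red. The circles stay near the bars for all genes, and the E9.5 circles of all 10 genes lie below -1. Settings that change only the filter or the model, or leave out an array of the other stage, keep the ratio by construction. Their circles lie on the bar.

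The genotype ratio differed between the stages for all 10 genes. The ratio at E11.5 minus that at E9.5 ran from 1.23 for Actc1 to 3.84 for Myl2 on the log2 scale, with a median of 1.58, and all 15 probes passed (limma adjusted p of 9.50e-05 or less), where 7.07% of all kept probes were called higher. By gene it was 3.84 ± 0.10 for Myl2, 2.36 ± 0.10 for Myh7, 2.19 ± 0.09 for Mybpc3 and 1.99 ± 0.09 for Myl3. It was 1.63 for Tnni3, 1.54 for Myh6, 1.53 for Myl4, 1.44 for Myl7 and 1.24 for Tnnt2. Without E11.5 replicate 1 the median difference of the 10 genes was 1.62, and Myl7, Tnnt2 and Actc1 did not pass. That fit has 1 array at E11.5 and takes its spread from E9.5. A genotype effect shared by both stages, tested by limma on the stage averages, was called for 0 of the 10 genes, of which 0 had an unadjusted p under 0.05, and for 0 of all 24984 probes, of which 1883 had one. A fit that treated each array as a measurement of its own also called 0 of the 10, where 0.064% of all kept probes were called higher and 0.216% lower.

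Between the stages the levels of the genotypes came together. In the Nxn-null RNA all 10 genes rose at E11.5 over E9.5, with a median log2 change of 1.35, where 23.6% of all kept probes were called higher. In the wild-type RNA 7 of the 10 fell, with a median change of -0.30, where 30.2% of all kept probes were called lower. The median change of all kept probes was -0.02 in RNA of Nxn-null embryos and -0.05 in RNA of wild-type embryos. These changes were taken within a dye, and both genotypes share arrays, which the fit does not model. It called 50% of all kept probes in Nxn-null and 54.2% in wild type, so a call by itself sets a gene little apart. The difference between the changes of the genotypes is the same quantity as the difference of the ratios tested above.

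Myl2 rose by the most in the Nxn-null RNA, with log2 changes of 3.37 in Cy5 and 3.19 in Cy3, against -0.50 in Cy5 and -0.63 in Cy3 in the wild-type RNA. The means were 3.28 ± 0.07 (9.73-fold higher, limma adjusted p = 2.06e-06) and -0.56 ± 0.07 (1.48-fold lower, adjusted p = 0.000817). Myh7 had 2.00 ± 0.10 in Nxn-null and -0.36 ± 0.10 in the wild-type RNA, Myl3 1.75 ± 0.07 and -0.25 ± 0.07, and Mybpc3 1.54 ± 0.07 and -0.65 ± 0.07. These 4 genes thus rose in one genotype and fell in the other, and the rise was the larger in each.

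Myl7 had the reverse balance. Its change was 0.29 in Cy5 and 0.34 in Cy3 in the Nxn-null RNA, a mean of 0.31 ± 0.07 (limma adjusted p = 0.00847), against -1.05 and -1.20 in the wild-type RNA, a mean of -1.13 ± 0.07 (2.18-fold lower, adjusted p = 3.46e-05). For Myl7 most of the difference between the genotypes' changes thus came from the wild-type RNA. With no normalisation between arrays the Nxn-null change of Myl7 was -0.03, and with the processed signals of Feature Extraction 0.08, neither of them called, so that its rise depends on the scaling between arrays.

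Tnni3 changed by 1.19 ± 0.07 in Nxn-null and -0.44 ± 0.07 in the wild-type RNA, and Myl4 by 1.30 ± 0.07 and -0.23 ± 0.07. Tnnt2 and Myh6 rose in the Nxn-null RNA (1.08 and 1.37) and did not pass in the wild-type RNA by the brightest probe (-0.16 and -0.17, limma adjusted p = 0.213 and 0.182; with a replicate block Tnnt2 passed there, at 0.0363), whereas the other Myh6 probe fell there (-0.59, adjusted p = 0.00115). Actc1 rose in the Nxn-null RNA (1.33) and had 0.10 in the wild-type RNA (adjusted p = 0.366), a value whose sign turned under other scalings (-0.10 and -0.19). Without any normalisation between arrays 3 of the 10 genes were called higher in the Nxn-null RNA, where 0.728% of all kept probes were, and 1 lower in the wild-type RNA, where 0.412% were. The median changes of the 10 genes were then 1.18 and -0.52.

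**Figure D4:**
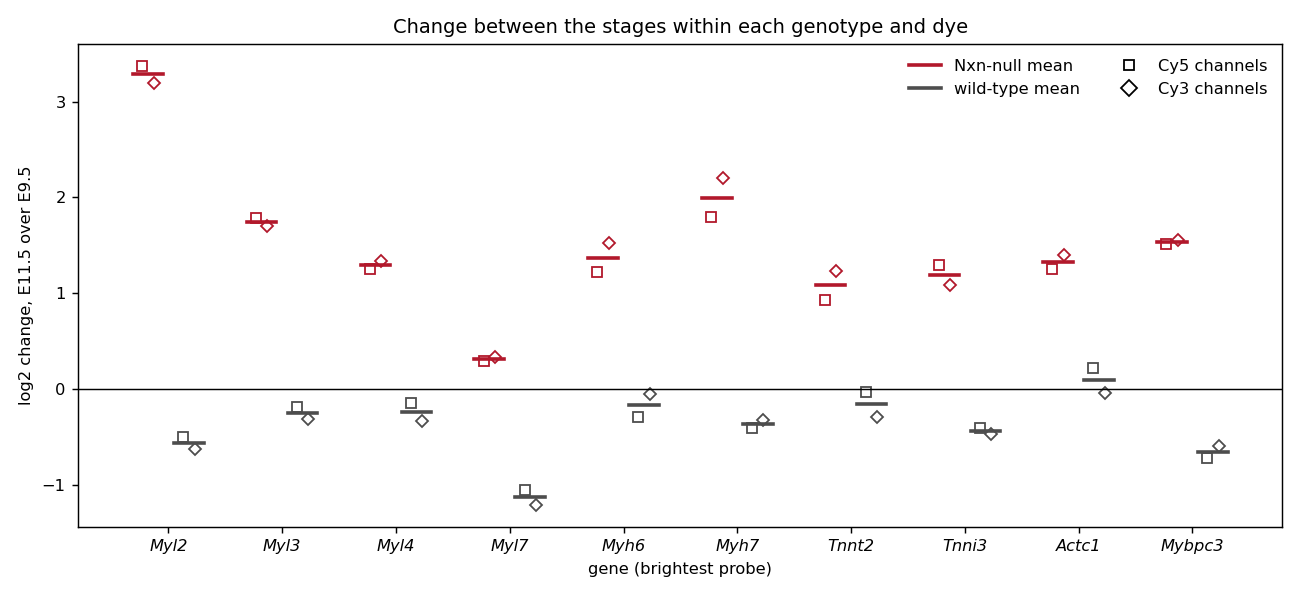
Log2 change at E11.5 over E9.5 (y axis) of the brightest probe of each gene in the Nxn-null (red) and wild-type (grey) RNA, with squares for the Cy5 channels, diamonds for the Cy3 channels and bars for their mean. Every Nxn-null value lies above 0, from 0.29 for Myl7 to 3.37 for Myl2, and the wild-type values lie below 0 except the Cy5 value of Actc1.

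Ordered by mean level within a gene, the Nxn-null E9.5 RNA was lowest for all 10 genes. Its channels lay apart from those of the next group for 9 genes and overlapped them for Myl7. In the wild-type E9.5 RNA 9 genes had their highest mean, apart from the next group for Myl2, Myl7, Myh6, Myh7, Tnni3 and Mybpc3 and overlapping the Nxn-null E11.5 RNA for Myl3, Myl4 and Tnnt2. The E11.5 groups lay between these in 9 genes, and their channels overlapped each other for Myl7, Myh6 and Mybpc3. Over the 8 channels, the centred levels of 8 genes correlated at 0.984 to 0.994 (Pearson) with the mean of the 10, Actc1 at 0.949 and Myl7 at 0.665, where each gene is part of that mean. Among 14188 genes outside the lists used here, those most alike to the mean over the same 8 channels, which share 4 arrays, were Apobec2 (r = 0.993), Tesc (0.988), Zfp975 (0.985), Hspb2 (0.984), F10 (0.982) and Hoxc9 (0.980). Their E9.5 ratios ran from -1.34 for Apobec2 to -0.78 for Tesc.

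The list of other sarcomere genes of the heart was mostly lower at E9.5 as well. It also holds genes that are not parts of the heart sarcomere, such as Myocd and Actn1, and they are in its counts and medians. Of 40 listed genes 35 could be tested. At E9.5, 25 were lower and 1 higher (13.5% of all kept probes were called lower and 8.8% higher), with a median log2 ratio of -0.59. At E11.5, 4 were lower and 3 higher (5.31% and 3.17% of all kept probes), with a median of 0.03. The lowest at E9.5 were Smpx, a small muscle protein (-1.65), Csrp3, the muscle LIM protein of the Z-disc (-1.62), and Ttn, the giant spring titin (-1.53). Highest was Myocd, a coactivator of serum response factor, which was higher at both stages (0.75 at E11.5 and 0.37 at E9.5) with a wide spread between arrays (1.09 and 0.41 at E11.5, 0.61 and 0.13 at E9.5). It was followed at E9.5 by Tpm2, a tropomyosin, at 0.14 and Actn1, the non-muscle alpha-actinin, at 0.12, neither of which passed (limma adjusted p = 0.115 and 0.211).

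At E11.5 Tnnc1, the calcium-binding subunit of cardiac troponin, was higher (0.50, limma adjusted p = 3.20e-05) although it had been lower at E9.5 (-0.99). The M-band protein Myom2 (-0.30) and Tmod1, which caps the pointed ends of thin filaments (-0.25), were the lowest. The other calls at E11.5, named here after their values were seen, were Smpx (0.35), Lmod3 (-0.23) and Unc45b (-0.22). Tnnt1, Lmod2, Xirp2 and Cmya5 were not well above background, and Myh7b had no probe.

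Genes of calcium handling, secretion and energy supply in heart muscle followed the same direction. At E9.5, 12 of 17 were lower and 0 higher, where 13.5% of all kept probes were called lower and 8.8% higher. Their median was -0.47, and Ryr2, Ckm and Ckmt2 were not well above background. Nppa, the atrial natriuretic peptide, had the largest ratio (-2.13 ± 0.06, limma adjusted p = 1.70e-15), and at E11.5 Nppa and Nppb were higher (0.27 and 0.32) and the calcium pump regulator Sln lower (-0.22). Cardiac transcription factors lay nearer 0, with 10 of 23 lower and 1 higher at E9.5, against the same 13.5% and 8.8%, and a median of -0.17. Nkx2-5, a regulator of cardiac identity, had the largest ratio (-0.70), followed by Hopx (-0.63) and Gata6 (-0.58). Tbx20 (-0.30), Hand1 (-0.22) and Mef2c (-0.21) were among the others called lower, and the 1 called higher was Tbx2 (0.21). Gata4, Tbx5 and Hand2 had 0.12, 0.07 and 0.01, none of them called. At E11.5 the transcription factors had a median of 0.02, with Irx4 called higher (0.22).

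**Figure D5:**
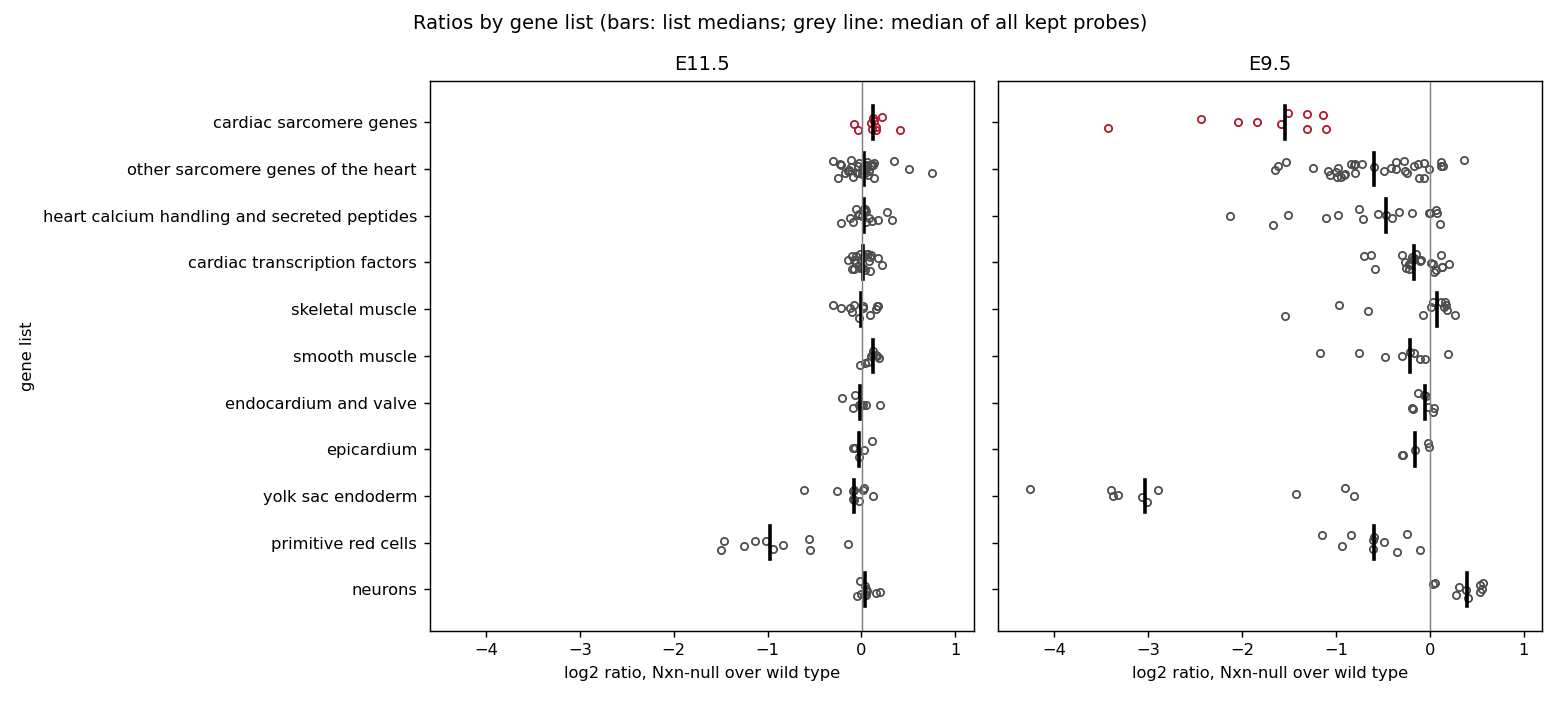
Log2 ratio of Nxn-null over wild type (x axis) of the tested genes of each list (rows, open circles), with the 10 sarcomere genes in red, black bars for list medians and a grey line for the median of all kept probes, at E11.5 (left) and E9.5 (right). At E9.5 the 10 genes lie between -3.43 and -1.11, with the yolk sac list further left (median -3.04) and neurons on the right (0.39), and at E11.5 the list furthest from 0 is that of primitive red cells (-0.98).

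Markers of other tissues also moved with genotype at E9.5, where 13.5% of all kept probes were called lower and 8.8% higher. All 10 yolk sac endoderm genes were lower, with a median of -3.04, led by Cubn, the endocytic receptor cubilin (-4.25). Their summed level was 14877 to 18307 in the Nxn-null RNA, against 156331 to 157394 in the wild-type RNA, on the linear scale. Of the 10 primitive red cell genes 9 were lower (median -0.60, Hbb-y at -1.15), and of the 10 neuronal genes 8 were higher and 0 lower (median 0.39, Stmn3 at 0.57). The summed level of the 10 sarcomere genes was 38627 to 43831 in the Nxn-null RNA, against 133472 to 136143 in the wild-type RNA. Myh7 and Myl7 had the highest levels of the 10 in every channel and weigh most in that sum. The part of tissue makeup, dissection or embryo stage in the sarcomere result was not tested.

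For the lists that follow, 13.5% of all kept probes were called lower and 8.8% higher at E9.5, and differences between lists were not tested. Of 12 tested skeletal muscle genes, 3 were lower and 2 higher at E9.5 (median 0.08), with the perinatal heavy chain Myh8 at -1.54, and the skeletal regulators Myod1 and Myog at 0.27 and 0.12. The summed skeletal level was 7865 to 8392 in the Nxn-null RNA, against 10754 to 11226 in the wild-type RNA. Myh8 had the highest wild-type level of that list and weighs on this difference, with log2 levels of 10.53 and 10.37 in Nxn-null, against 11.94 and 12.03. Of the 9 smooth muscle genes 5 were lower and 1 higher (median -0.21, Cnn1 at -1.17), with sums of 24127 to 24356 against 34330 to 35923. Of the 8 endocardium and valve genes 1 was lower (Npr3, -0.19), with a median of -0.05, and of the 5 epicardium genes 2 were lower (Aldh1a2 at -0.30 and Wt1 at -0.29). The summed endocardial level was 11389 to 11428 in the Nxn-null RNA, against 12337 to 12484 in the wild-type RNA. The epicardial sums were 4935 to 4974 and 5380 to 6299. Myf5, Tnnc2 and Ckm of the skeletal list were not well above background, and all markers of the other 6 tissue lists were kept.

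At E11.5 the medians of the lists of other tissues lay between -0.08 and 0.13, except for the red cell genes. Of these 9 of 10 were lower (median -0.98), where 5.31% of all kept probes were called lower. Of the 10 yolk sac genes 2 were lower, Apob (-0.61) and Apoa1 (-0.26), and 0 higher. Of the 12 skeletal genes 2 were lower, Myh3 (-0.31) and Chrna1 (-0.21), and 0 higher. Summed levels of the 10 sarcomere genes were then 101369 to 101726 in the Nxn-null RNA, against 96488 to 97159 in the wild-type RNA. The yolk sac sums overlapped, at 76499 to 77283 against 76474 to 84001. At both stages these sums follow mostly Afp, which had the highest level of that list in every channel. Its log2 level at E11.5 was 15.98 and 15.96 in Nxn-null, against 15.96 and 16.13, and that of Amn 7.51 and 7.53, against 7.49 and 7.49. From E9.5 to E11.5 all 10 genes of the list fell in the wild-type RNA, from -4.36 for Cubn to -0.19 for Dab2 (30.2% of all kept probes were called lower). The red cell sums were 317540 to 419125, against 814000 to 894495.

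As a check of the labels, both Nxn probes had negative ratios on each of the 4 arrays, -1.18, -1.13, -1.24 and -1.42 at E11.5 and -0.77, -0.85, -1.04 and -0.93 at E9.5. The labels do not say whether these probes lie in the disrupted part of the gene. A probe of Xist (A_51_P145453), the RNA made from the inactive X chromosome, had 6.07 and 5.59 at E11.5 and -0.14 and -0.72 at E9.5, and the Y-linked Eif2s3y had -4.24 and -2.95 at E11.5 and 0.05 and 0.12 at E9.5. Sex-linked transcripts thus moved with genotype at E11.5, and their part in the E11.5 ratios was not tested. Across all kept probes the ratios of dye-swapped arrays correlated at 0.241 at E11.5 and 0.425 at E9.5, and 48.2% to 70.3% of probes were well above background in a channel, with 0 to 7 saturated spots an array.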

How the data were processed

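Per the file headers, the deposited scanner files hold spot intensity on a linear scale with local background, from Agilent Feature Extraction (version 9.1.3.1 in the headers, 9.5.3.1 in the submitters' processing notes), and a log10 ratio of red over green. The deposited value table of the series equals log10 of the processed signals, turned to Nxn-null over wild type, within 0.0001 for at least 99.995% of 40929 probes. Its column medians were -0.0347 and 0.021 at E11.5 and -0.0136 and 0.0408 at E9.5. It was not centred further.

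Here the mean signals were corrected by normexp (offset 50) and loess within arrays that gave control spots no weight, using R 4.3.3 with limma 3.58.1 (jsonlite 2.0.0 and version 1.17.8 of data.table). Probes with an outlier mark (302) were left out. A probe was kept where both arrays of a stage called the same genotype well above background. Gene names of all probes were updated from a RefSeq gene list on GRCm38.p6 (22951 by accession, 6659 by symbol, 3109 by older symbol, 8455 unchanged). The files name no genome build. The brightest kept probe stood for a gene.

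Ratios were fitted with limma over 4 arrays with a dye term, which leaves 1 residual degree of freedom (prior 17.98). As the replicate number gives the dye orientation, the dye term is also the replicate block. Stage changes were fitted on within-dye differences of single channels after Aquantile (2 residual degrees of freedom). SEs are limma's moderated ones. P-values were adjusted over all kept probes by Benjamini-Hochberg at 0.05. The script was tested on simulated data. Figures used matplotlib 3.10.9 under Python 3.11.15. The number of arrays limits precision.

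The 10 genes and all lists were chosen with earlier results of these data known. By rule, all 10 genes are named, with the 3 highest and 3 lowest of the list of other sarcomere genes at E9.5. From that list the 2 highest and 2 lowest at E11.5 are named as well. The rule also takes the largest E9.5 ratio of each other list and the 6 genes most alike in pattern. Genes named beyond this were chosen after their values were seen.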

Additional observations from a re-analysis of the deposited data

Results flagged for a closer look

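The ratio of Nxn-null over wild type differed between E11.5 and E9.5 for all 10 genes by a test of the difference itself (limma, E11.5 minus E9.5 on the log2 scale). The difference was 3.84 for Myl2, the ventricular regulatory light chain, and 2.36 for the beta heavy chain Myh7. It was 2.19 for Mybpc3, 1.99 for Myl3, 1.63 for Tnni3, 1.54 for Myh6 and 1.53 for Myl4. It was 1.44 for Myl7, 1.24 for Tnnt2 and 1.23 for Actc1. The lowest adjusted p was 5.24e-16 for Myl2 and the highest 4.44e-09 for Actc1 (limma, over all kept probes), and for each gene both E11.5 arrays had a higher ratio than both E9.5 arrays.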

How the results depend on the processing

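All 10 genes were called lower at E9.5 under each alternative that kept all 4 arrays, where 1.86% to 14.8% of all probes tested were. Without 1 array their E9.5 ratios stayed below -1. The ratio at E11.5 minus that at E9.5 was called for 9 of them with the Feature Extraction log ratio, where 0.825% of all kept probes were called higher. There Myh6 missed (limma adjusted p = 0.0741). Without 1 array the median difference of the 10 genes was 1.62 to 1.67, and without E11.5 replicate 1 not all of them passed. The count of genes higher at E11.5, 2 as reported, was 0 with the Feature Extraction log ratio, 1 with median centring, 1 with no background subtraction, 1 with no filter on dim probes, 1 with an offset of 10 and 1 with trend and robust moderation. Without 1 array neither Myl2 nor Myl4 kept its call, in fits with 1 array at a stage. Without the dye term, which is the replicate block, the count was 0, and all 10 genes were still lower at E9.5, where 1.86% of all probes were. The share of all probes called higher at E11.5, 3.17% as reported, was then 0.056%. It was 0.048% with the Feature Extraction log ratio, 0.644% with median centring and 2.68% with no background subtraction. With no filter on dim probes it was 1.59%, with an offset of 10 2.14% and with trend and robust moderation 2.75%. With no normalization between arrays the count of genes higher at E11.5 over E9.5 was 3 in the Nxn-null RNA, against 10, and the count lower was 1 in the wild-type RNA, against 7, while the shares of all kept probes were 0.728% and 0.412%, against 23.6% and 30.2%, and the genes' median changes 1.18 and -0.52, against 1.35 and -0.30. The separate-channel model gave 4 lower in the wild-type RNA, where 20.3% of all kept probes were called lower. A replicate block in the stage changes gave 8, with Tnnt2 gained, where 37.1% of all kept probes were called lower. Signs turned for the wild-type change of Actc1 (-0.10 with Feature Extraction processed signals, -0.19 with no normalization between arrays and -0.0349 to 0.23 without 1 array), for the Nxn-null change of Myl7 (-0.0255 with no normalization between arrays) and at E11.5 for Myh6 and Myh7 with median centring (0.10 and 0.13). Without 1 array the E11.5 ratio ranged from -0.14 to 0.0537 for Myh6, from -0.0035 to 0.31 for Mybpc3 and from -0.0379 to 0.30 for Myl7. None of the values with a turned sign was called, and the causes were not tested. Stage changes without 1 array have no residual degrees of freedom and no test, and ratios without 1 array assume that the lone array varies like the others. Over all kept probes, 2198 were higher and 3366 lower at E9.5, against 206 and 713 with median centring and 381 and 1157 with the Feature Extraction log ratio. At E11.5 the counts were 791 and 1327, against 161 and 138 and 12 and 36. All 4 arrays were on 1 slide with 1 scan, so a slide or scan block was not run.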
